A study of Homo sapiens with 6 samples.

Results

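The gene group described here is the hypoxia response and glycolysis genes, a list of 55 genes out of the 19775 that the arrays named by a single gene symbol. It was chosen by name, from knowledge of hypoxia and glucose metabolism, with earlier results of these data known. The list holds the enzymes of glycolysis, the switches of glycolytic flux, the subunits and regulators of the hypoxia-inducible factors (HIFs), and known HIF target genes. Each gene was read from its brightest probe set, a probe set being a group of short array probes against one transcript. Of the 55 members, 53 had a probe set with a single symbol and 52 were tested. CA9 and SLC16A3 had none and were not analysed here, and EGLN3 lay under the level required for testing, a mean signal of 15.4 on the arrays' scale of brightness.

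RNA was measured on 6 Affymetrix arrays from U87-2M1, an invasive derivative of the human glioma line U87, recovered from an in vivo lung metastasis assay and propagated in vitro as a line. One group of 3 arrays came from cells carrying a baculoviral miR-10b decoy vector, and the other group of 3 came from cells carrying a baculoviral control decoy vector. A decoy is an RNA that offers binding sites for a microRNA and so draws it away from its messenger RNAs. Cells of both groups were at passage 4 and were maintained in hypoxia in DMEM, so there was no normoxic group and the comparison is between decoys under low oxygen and not between low and normal oxygen. All arrays came from a single subline. Nothing in the labels states that replicates came from separate cultures, so the p-values reflect only how far these samples spread, and that spread may be technical. The level of miR-10b itself was not measured by these values.

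When oxygen is scarce, the prolyl hydroxylases that mark HIF alpha subunits for destruction lose activity, the alpha subunits (HIF1A and EPAS1) accumulate, pair with ARNT and switch on target genes through short DNA motifs in promoters and enhancers. Many of the targets are enzymes of glycolysis, which turns glucose into pyruvate and lactate with no need for oxygen, and glioma cells are known for a high rate of it even when oxygen is present. HIF1A is controlled mainly by protein stability, so the level of its messenger RNA is not a measure of HIF activity.

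The core of the HIF binding motif is ACGTG or GCGTG, which reads CACGT or CACGC on the other strand. Promoters are shown for 3 members that were lower and 2 that were higher with the miR-10b decoy, because these members were among those with the smallest p or the largest difference in their direction, and because their promoters hold the motif in unlike numbers. Each runs from 250 bases before to 50 bases after the annotated transcription start, 5′ to 3′ on the strand of the gene, from RefSeq on GRCh38.p14. Capitals mark every match to the core motif on either strand, overlapping matches included.
BNIP3 promoter, chr10:131981874-131982173, - strand: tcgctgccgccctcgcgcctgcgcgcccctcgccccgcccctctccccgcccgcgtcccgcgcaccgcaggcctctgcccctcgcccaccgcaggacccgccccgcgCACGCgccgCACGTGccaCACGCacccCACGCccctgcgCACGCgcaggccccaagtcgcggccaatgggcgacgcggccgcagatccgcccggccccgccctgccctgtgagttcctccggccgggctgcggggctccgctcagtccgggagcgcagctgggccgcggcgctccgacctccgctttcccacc
ALDOC promoter, chr17:28576846-28577145, - strand: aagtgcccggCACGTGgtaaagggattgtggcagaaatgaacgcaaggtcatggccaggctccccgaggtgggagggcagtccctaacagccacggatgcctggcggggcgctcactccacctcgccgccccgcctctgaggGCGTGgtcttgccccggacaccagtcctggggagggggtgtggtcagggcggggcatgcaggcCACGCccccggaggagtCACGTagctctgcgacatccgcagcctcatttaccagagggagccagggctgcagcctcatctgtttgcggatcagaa
PFKFB4 promoter, chr3:48556754-48557053, - strand: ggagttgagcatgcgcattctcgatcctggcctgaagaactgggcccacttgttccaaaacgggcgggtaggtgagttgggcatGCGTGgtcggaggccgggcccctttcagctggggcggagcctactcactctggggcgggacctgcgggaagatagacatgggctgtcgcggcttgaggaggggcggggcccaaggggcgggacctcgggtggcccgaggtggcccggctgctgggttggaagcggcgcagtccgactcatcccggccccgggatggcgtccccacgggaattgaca
HK2 promoter, chr2:74834920-74835219, + strand: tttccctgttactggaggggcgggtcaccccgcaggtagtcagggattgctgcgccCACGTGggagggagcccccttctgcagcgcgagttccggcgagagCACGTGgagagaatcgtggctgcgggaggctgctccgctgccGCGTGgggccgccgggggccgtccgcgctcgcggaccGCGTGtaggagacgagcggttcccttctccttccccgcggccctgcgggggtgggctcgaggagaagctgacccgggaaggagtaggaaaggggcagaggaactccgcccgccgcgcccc
ADM promoter, chr11:10304823-10305122, + strand: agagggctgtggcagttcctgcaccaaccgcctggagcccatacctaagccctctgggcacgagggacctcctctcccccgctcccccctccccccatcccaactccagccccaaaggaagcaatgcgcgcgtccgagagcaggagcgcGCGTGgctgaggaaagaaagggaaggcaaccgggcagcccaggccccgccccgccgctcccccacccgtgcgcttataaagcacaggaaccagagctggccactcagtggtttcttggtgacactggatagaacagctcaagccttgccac
BNIP3 had 6 matches, ALDOC had 5, PFKFB4 had 1, the HK2 promoter shown had 6 and ADM had 1, where the palindrome CACGTG counts once on each strand. HK2 has a further promoter in the table, with 3 matches. In all, 49 of the 55 members had a promoter in the RefSeq table, 84 promoters in total because a gene can have several starts. The motif was in 61 of these 84 promoters (72.6%), against 9454 of 16155 promoters (58.5%) of all genes tested and 17012 of 35116 promoters (48.4%) in the whole table. It was in 8 of 9 promoters of members that were higher (88.9%) and in 26 of 30 of those that were lower (86.7%), so its presence did not separate the directions. Among members that did not pass the test it was in 23 of 38 promoters (60.5%). Starts of one gene were counted singly, and many of these 38 belong to HK1 and PFKM, most of them without the motif. This share therefore leans on a few genes and does not set called members apart. A match of so few letters describes the sequence and is not a binding site.

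With the miR-10b decoy, 22 of the 52 tested members were lower and 6 were higher than with the control decoy (limma, adjusted p under 0.05). In percent, 42.3% of the members were lower, against 17.3% of all 13842 genes tested, and 11.5% were higher, against 16.5% of all genes. The members were chosen with earlier results of these data known, so these shares are not an independent test. The lower members included the fructose bisphosphate regulator PFKFB4, the aldolase ALDOC, the adenylate kinase AK4, the mitophagy receptor BNIP3 and the pyruvate dehydrogenase kinase PDK1. The higher members were the hexokinase HK2, the peptide hormone ADM, the HIF antagonist CITED2, the HIF hydroxylase HIF1AN, the glycogen branching enzyme GBE1 and the repressor BHLHE41. The median log2 difference of the members was -0.15, against -0.021 over all genes tested.

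The members are bright on these arrays, and bright genes passed the test more often. Mean normalised signal over the 6 arrays had a median of 1562 among the tested members and 205 among all tested genes. Among the 2125 genes with a mean signal of 1000 or more, 27.6% were lower and 24.0% higher. Of the 32 members in that range, 15 were lower and 3 higher. Of the 20 dimmer members 7 were lower and 3 higher, where 17.3% of all genes tested, bright ones included, were lower and 16.5% higher. The 3 signals of the miR-10b decoy arrays all lay below the 3 control signals for 25 members, a separation seen in 24.0% of all genes tested. They all lay above for 10 members, against 22.4% of all genes tested, and for the other 17 members the groups overlapped.

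**Figure D1:**
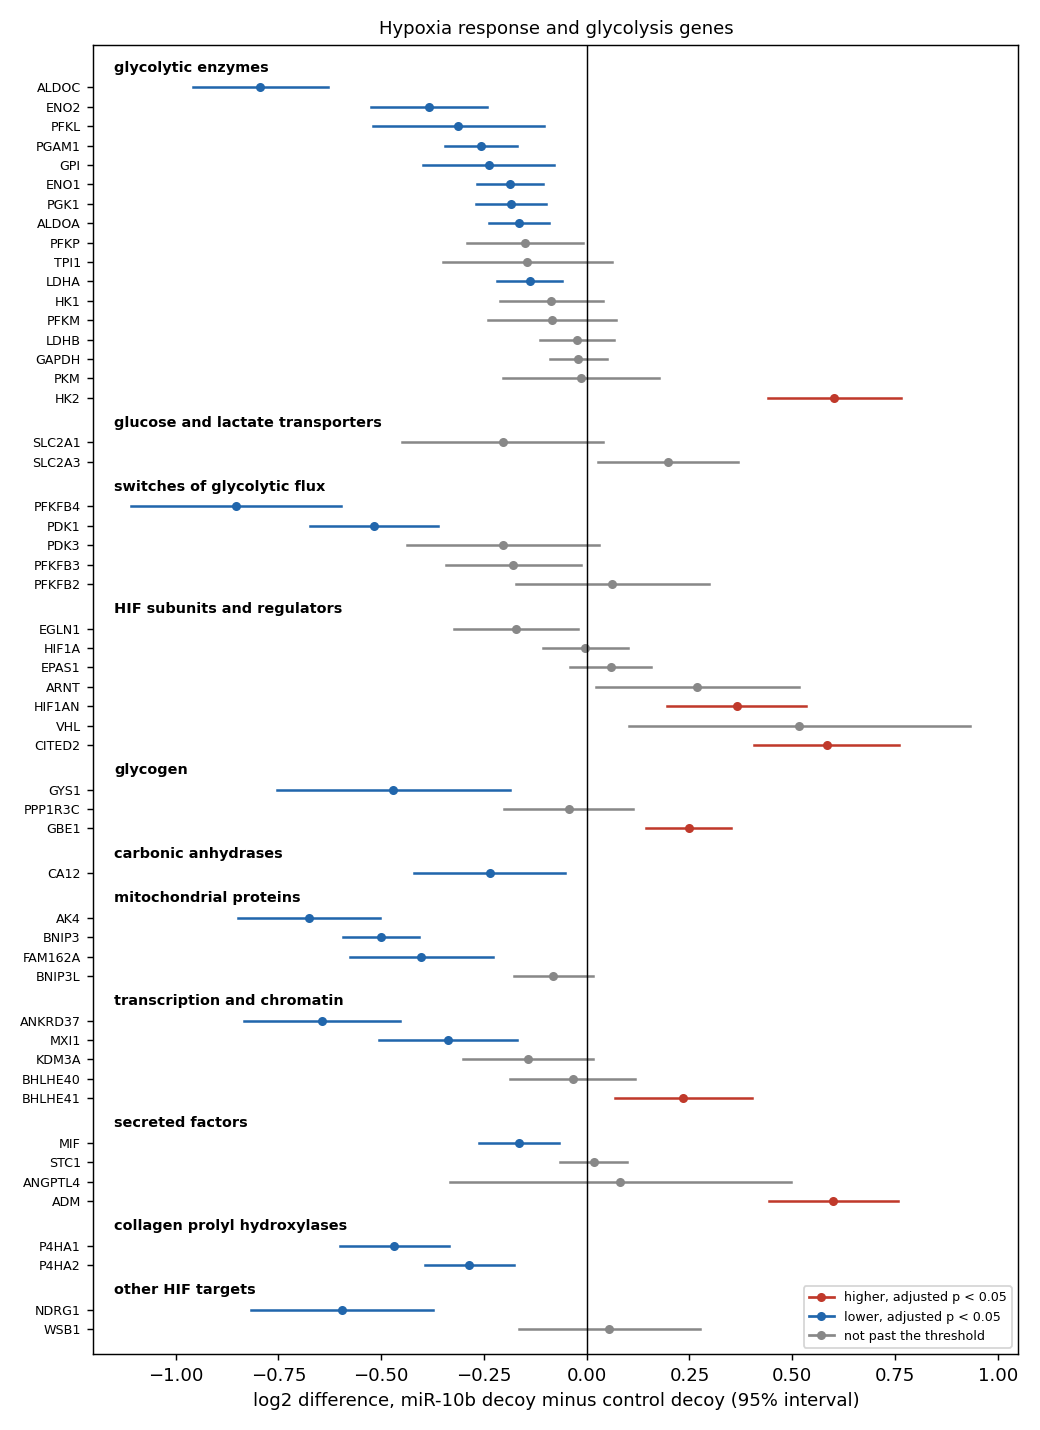
Log2 difference of signal, miR-10b decoy minus control decoy, for the 52 tested members, ordered by role from top to bottom. Points are the fitted differences and bars their 95% intervals. Red marks the 6 members that were higher, blue the 22 that were lower and grey the 24 that did not pass the test. Most glycolytic enzymes lie left of 0, with HK2 alone far to the right.

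A few facts of the arrays bear on all values. Correlations of log2 signals were 0.981 to 0.984 between arrays of one group and 0.963 to 0.969 between arrays of different groups. As deposited, control decoy replicate 3 was brighter, with a mean signal, after trimming 2% at each end, of 192 against 155 to 163 on the other 5 arrays, and quantile normalisation put all arrays on one scale. The ratio of the 3′ to the 5′ actin control probe sets, which rises when RNA is broken or copied incompletely, was 8.54 ± 1.77 with the miR-10b decoy and 5.73 ± 0.474 with the control decoy (SD, n = 3 each; exact permutation p = 0.1, the smallest this design can give). The same ratio for GAPDH was 0.943 ± 0.00747 with the miR-10b decoy and 0.945 ± 0.0192 with the control decoy (exact permutation p = 0.9). The part of the actin difference in the results was not tested. In bulk RNA, fewer cells of a type and less RNA per cell cannot be told apart.

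Markers of the labelled cell type were present in part. Of the glioma and mesenchymal markers, VIM, CD44 and TNC were bright, with VIM at 9896 ± 98.9 with the miR-10b decoy and 9901 ± 101 with the control decoy (SD, n = 3 each), whereas GFAP, S100B, OLIG2, PTPRZ1 and FABP7 lay under the level for testing by their means. OLIG2 alone of these was above that level on all 3 miR-10b decoy arrays (19.6, 19.6 and 29.8). It was under it on all 3 control decoy arrays (0.803, 5.19 and 7.74), and its difference was not tested. The summed signal of this list of 10 was 25176 to 25535 with the miR-10b decoy and 24904 to 25777 with the control decoy, with NES the only member called (log2 difference -0.39, adjusted p = 0.00805). No epithelial marker (2 of 6 tested) and no haematopoietic marker (1 of 5 tested) passed the test, with EPCAM, CDH1 and PTPRC under the level. The epithelial list summed to 112 to 128 with the miR-10b decoy and 111 to 116 with the control decoy, and the haematopoietic list to 24.1 to 37.8 with the miR-10b decoy and 28.1 to 49.5 with the control decoy. Of 5 endothelial markers PECAM1 and TEK were lower, with VWF and CDH5 under the level and a summed signal of 207 to 214 with the miR-10b decoy and 252 to 323 with the control decoy. Of 4 neuronal markers SNAP25 and SYT1 were lower, with RBFOX3 and STMN2 under the level and a summed signal of 534 to 543 with the miR-10b decoy and 851 to 890.1 with the control decoy. The part of these marker differences in the results was not tested.

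Of the 17 glycolytic enzymes 9 were lower (52.9%, against 17.3% of all genes tested), 1 was higher (5.88%, against 16.5%) and 7 did not pass the test, and those 7 had values between -0.15 for PFKP and -0.014 for PKM. The lower enzymes were GPI, PFKL, ALDOA, ALDOC, PGK1, PGAM1, ENO1, ENO2 and LDHA, which span the pathway from the isomerisation of glucose 6-phosphate to the reduction of pyruvate. The median of the 17 was -0.15. The number of lower enzymes depended on the processing, and it was 3 when each array was only centred on its median, where 11.3% of all genes were lower, and 4 without an intensity trend in the variance, where 12.6% were.

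HK2, the hexokinase that traps glucose in the cell as glucose 6-phosphate and that many tumours express strongly, rose. Its signal was 3498, 3660.3 and 3677 in the miR-10b decoy arrays, against 2721, 2297 and 2150.2 in the control decoy arrays. All 3 miR-10b decoy arrays lay above all 3 control arrays, a 1.52-fold difference (log2 difference 0.60, SE 0.074, adjusted p = 0.000106). Both of its other tested probe sets were also called higher, at 0.56 and 0.78. HK1, the hexokinase found in most tissues, did not pass the test (log2 difference -0.086, 95% interval -0.21 to 0.039, adjusted p = 0.278).

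ALDOC, the aldolase isozyme typical of brain, fell the most among the enzymes. Its signal was 317, 342 and 308 in the miR-10b decoy arrays, against 563, 554 and 564 in the control decoy arrays, with no overlap between the groups and little spread within each. The fold was 0.58 (log2 difference -0.79, SE 0.075, adjusted p = 1.67e-05). ALDOA, the aldolase found in most tissues, fell by far less, with a signal of 7518 ± 81.7 with the miR-10b decoy and 8426 ± 40.8 with the control decoy (SD, n = 3 each) and a log2 difference of -0.16 (adjusted p = 0.0026). Aldolase splits fructose 1,6-bisphosphate into the pair of three-carbon sugars that feed lower glycolysis.

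ENO2, the enolase isozyme of neurons and neuroendocrine cells, also fell. It gave 1646, 1681 and 1445 in the miR-10b decoy arrays, against 2148, 2078 and 1989 in the control decoy arrays (log2 difference -0.38, SE 0.065, adjusted p = 0.000874). ENO1, the enolase isozyme of most tissues, which forms phosphoenolpyruvate in the step before pyruvate, was lower by a smaller amount (log2 difference -0.19, SE 0.037, adjusted p = 0.00242). Other ENO1 probe sets, at -0.63 and -0.54, fell by more than ENO2, so the order of the isozymes depends on the probe set. With all probe sets of ENO1 averaged, a dim untested one included, its difference was only -0.033 (adjusted p = 0.889). PGAM1, the phosphoglycerate mutase just upstream of enolase, gave 4984, 5258 and 4936 in the miR-10b decoy arrays, against 6150.4, 6000.1 and 5977 in the control decoy arrays and fell without overlap (log2 difference -0.26, SE 0.040, adjusted p = 0.000513).

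PGK1, which makes ATP in the payoff phase and is a standard HIF target, fell slightly on its brightest probe set. Its signal was 6960.2, 6942 and 6954 in the miR-10b decoy arrays, against 8282, 7760.4 and 7656 in the control decoy arrays, and the groups did not overlap (log2 difference -0.18, SE 0.039, adjusted p = 0.00366). LDHA, which reduces pyruvate to lactate, gave 9556, 9178 and 9133 in the miR-10b decoy arrays, against 10284, 10479 and 9921 in the control decoy arrays and was also lower (log2 difference -0.14, SE 0.036, adjusted p = 0.0111). All miR-10b decoy signals of LDHA lay below the control signals, but its call ended without control decoy replicate 2 (adjusted p = 0.0644). The calls of PGK1, ALDOA and ENO1 ended when arrays were centred on their median (adjusted p = 0.0923, 0.144 and 0.0754 in that order), and that of LDHA did too (adjusted p = 0.261).

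At the top of the pathway the differences were modest. GPI, which turns glucose 6-phosphate into fructose 6-phosphate, was lower (log2 difference -0.24, SE 0.072, adjusted p = 0.0247), and PFKL, the liver isozyme of phosphofructokinase, the committed step of glycolysis, was lower too (log2 difference -0.31, SE 0.095, adjusted p = 0.0247). The GPI call ended when control decoy replicate 1, control decoy replicate 3 or miR-10b decoy replicate 3 was left out (adjusted p = 0.0742, 0.0667 and 0.0674, in that order). With both PFKL probe sets averaged the call ended too, at -0.16 (adjusted p = 0.346). The PFKL call ended when control decoy replicate 2, miR-10b decoy replicate 2 or miR-10b decoy replicate 3 was left out (adjusted p = 0.0972, 0.0517 and 0.076, in that order). Neither of the other phosphofructokinase isozymes passed: PFKM had a log2 difference of -0.084 (adjusted p = 0.403) and PFKP, the platelet isozyme, -0.15 (adjusted p = 0.0974). PFKP passed as lower without miR-10b decoy replicate 1 (adjusted p = 0.0197).

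GAPDH, the dehydrogenase often used as a loading control, did not pass the test. Its signal was 10096, 9945 and 9855 in the miR-10b decoy arrays, against 10016, 10223 and 10084 in the control decoy arrays, and the interval of its difference is narrow around 0 (log2 difference -0.020, 95% interval -0.090 to 0.049, adjusted p = 0.659). PKM, the pyruvate kinase, had a wider interval (log2 difference -0.014, 95% interval -0.20 to 0.18, adjusted p = 0.926). TPI1, which interconverts the three-carbon sugars, had -0.14 (adjusted p = 0.268), with another probe set called lower at -0.13 and one more at 0.12, not called, and LDHB, the lactate dehydrogenase subunit of oxidative tissues, had -0.023 (adjusted p = 0.703). These intervals do not show that the levels were the same.

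Neither of the measured glucose transporters passed the test on its brightest probe set. SLC2A1, which encodes GLUT1, the transporter for basal glucose uptake and a HIF target, gave 424, 395 and 352 in the miR-10b decoy arrays, against 377, 478 and 500.3 in the control decoy arrays. The groups overlapped through control decoy replicate 1 (log2 difference -0.20, 95% interval -0.45 to 0.041, adjusted p = 0.188), and without that array the adjusted p was 0.0306. Its other tested probe set, a dim one, was called lower at -0.66, and with both averaged SLC2A1 was lower at -0.43 (adjusted p = 0.0197). SLC2A3, which encodes the high-affinity neuronal transporter GLUT3, had a log2 difference of 0.20 (adjusted p = 0.0707) on its brightest probe set, whereas its 2 other tested probe sets were at -0.39, called lower, and at -0.42, not called. For SLC2A3 the sign therefore differed between probe sets of one gene.

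Among the 5 switches of glycolytic flux, PFKFB4 and PDK1 fell (40%, against 17.3% of all genes tested). PFKFB2, PFKFB3 and PDK3 did not pass on their brightest probe sets. PFKFB4 makes and removes fructose 2,6-bisphosphate, the main activator of phosphofructokinase, and had the largest difference of all members. Its signal was 454, 342 and 319 in the miR-10b decoy arrays, against 688, 689 and 624 in the control decoy arrays, a fold of 0.55 without overlap (log2 difference -0.85, SE 0.12, adjusted p = 0.000213). Replicate 1 of the miR-10b decoy was the highest of its group. PDK1, a kinase that shuts off pyruvate dehydrogenase, gave 626, 665 and 578 in the miR-10b decoy arrays, against 901, 861 and 917 in the control decoy arrays. Its groups did not overlap either (log2 difference -0.52, SE 0.071, adjusted p = 0.000216).

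The other switches had smaller values. PFKFB3, the isozyme of PFKFB4 with the strongest bias toward making fructose 2,6-bisphosphate, had -0.18 (adjusted p = 0.0893) and passed as lower without miR-10b decoy replicate 1 (adjusted p = 0.0302). PDK3, a pyruvate dehydrogenase kinase isozyme, had -0.20 (adjusted p = 0.168) and passed as lower without miR-10b decoy replicate 2 (adjusted p = 0.0405). One of the 4 other tested probe sets of PDK3 was called lower, at -0.72, and the others lay between -0.53 and 0.14. PFKFB2, the heart isozyme, had 0.062 (adjusted p = 0.695), with dimmer probe sets at -0.75, called lower, and at 1.28, not called, so its sign differed between probe sets.

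**Figure D2:**
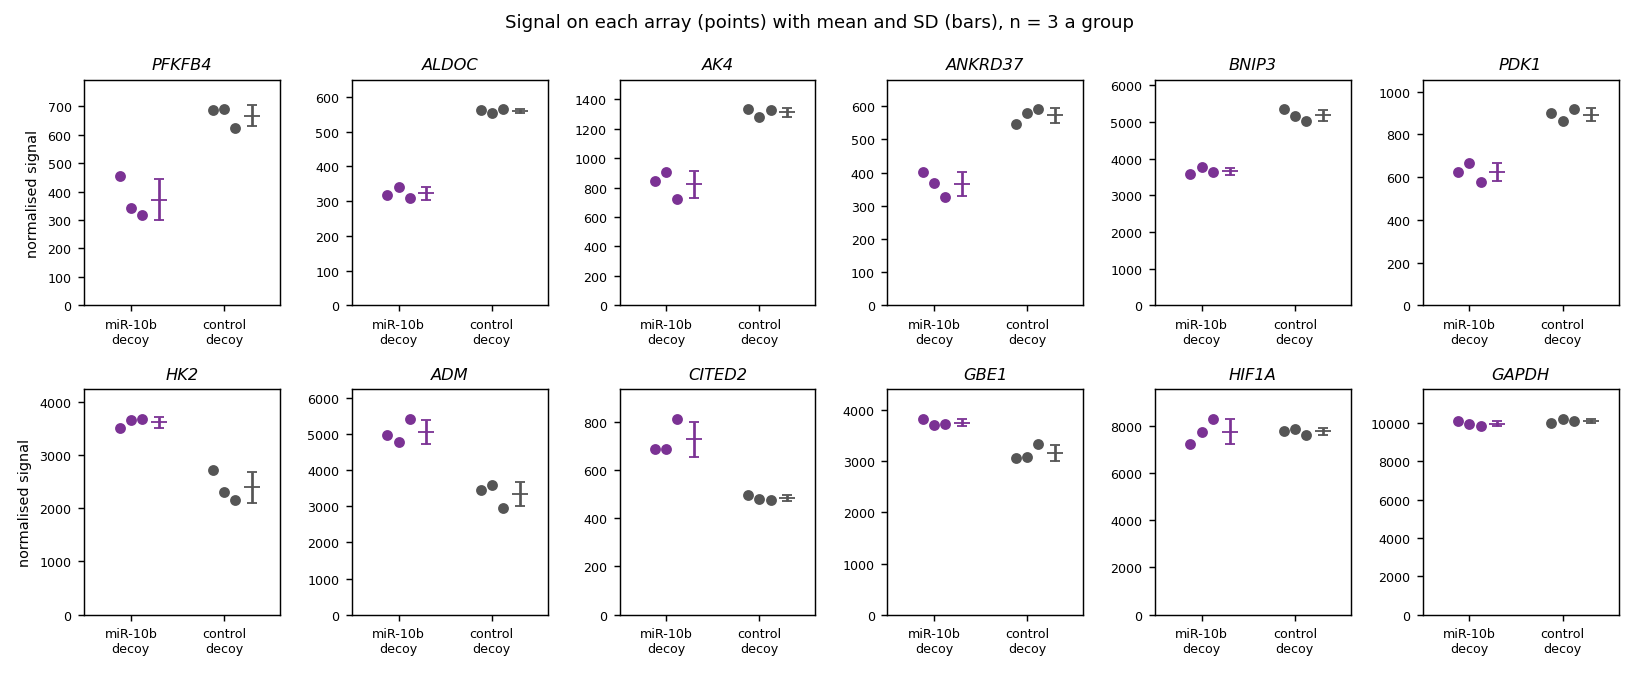
Normalised signal of 12 members on each array, with the miR-10b decoy at left in purple and the control decoy at right in grey. Points are single arrays, and the bar beside them is the mean with its SD (n = 3 a group). The upper row shows members that fell, PFKFB4, ALDOC, AK4, ANKRD37, BNIP3 and PDK1, and the lower row HK2, ADM, CITED2 and GBE1, which rose, with HIF1A and GAPDH, which did not pass the test. Each axis starts at 0.

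Of the 8 HIF subunits and regulators 7 were tested, 2 were higher (28.6%, against 16.5% of all genes tested), none was lower (against 17.3%) and 5 did not pass. The miR-10b decoy signals lay above the control signals in 5 (against 22.4% of all genes tested), and the median was 0.27. HIF1A, the main oxygen-regulated subunit, gave 7243, 7710.4 and 8287 in the miR-10b decoy arrays, against 7793, 7872 and 7603 in the control decoy arrays. Its groups overlapped (log2 difference -0.0038, 95% interval -0.11 to 0.10, adjusted p = 0.963). EPAS1, which encodes HIF2 alpha, gave 3143, 2969 and 2953 in the miR-10b decoy arrays, against 2899, 2933 and 2867 in the control decoy arrays, and its signals lay above the controls by a margin that did not pass the test (log2 difference 0.059, 95% interval -0.040 to 0.16, adjusted p = 0.355). ARNT, the partner of both, had 0.27 (adjusted p = 0.0893), which is also the median of the group. Dimmer tested probe sets of ARNT were at -0.38, -0.51 and 0.34, none called, so its sign differed between probe sets.

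The 2 HIF regulators that rose are both known to restrain HIF activity. Whether they bear on the levels of HIF target genes was not tested. CITED2 competes with HIF alpha subunits for the coactivators CREBBP and EP300, and it is itself a HIF target. It gave 685, 685 and 812 in the miR-10b decoy arrays, against 497, 478 and 474 in the control decoy arrays, with replicate 3 of the miR-10b decoy the highest (log2 difference 0.58, SE 0.081, adjusted p = 0.000233). HIF1AN, the asparagine hydroxylase also called FIH that blocks coactivator binding to HIF alpha subunits when oxygen is present, gave 416, 399.8 and 399.7 in the miR-10b decoy arrays, against 309, 305 and 328 in the control decoy arrays, without overlap (log2 difference 0.36, SE 0.077, adjusted p = 0.00359). On other probe sets neither gene was called. CITED2 had 1 other tested probe set, at 0.25 and not called, and HIF1AN had 2, at 0.0045 and -0.073, neither called. With the mean over all probe sets neither call held (adjusted p = 0.0778 for CITED2 and 0.472 for HIF1AN), and with the values as deposited the HIF1AN call did not hold either (adjusted p = 0.141).

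VHL, the part of the ubiquitin ligase that recognises hydroxylated HIF alpha subunits, gave 98.9, 118 and 94.8 in the miR-10b decoy arrays, against 75.2, 90.9 and 52.9 in the control decoy arrays. All miR-10b decoy signals lay above the controls, but the controls were spread widely and the difference did not pass (log2 difference 0.52, 95% interval 0.10 to 0.93, adjusted p = 0.0547). It passed as higher without control decoy replicate 2 (adjusted p = 0.0221). EGLN1, which encodes PHD2, the main prolyl hydroxylase of HIF1A and a HIF target, gave 1233, 1484 and 1413 in the miR-10b decoy arrays, against 1543, 1568 and 1525 in the control decoy arrays on its brightest probe set. That difference did not pass (log2 difference -0.17, 95% interval -0.32 to -0.020, adjusted p = 0.0777), while its 2 other tested probe sets were called lower, at -0.76 and -0.64. Without miR-10b decoy replicate 2 the brightest probe set passed too (adjusted p = 0.0428).

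EGLN3, which encodes the strongly hypoxia-inducible hydroxylase PHD3, was under the level for testing on all 6 arrays. Its signal was 9.20, 8.48 and 5.92 in the miR-10b decoy arrays, against 0.840, 7.90 and 6.30 in the control decoy arrays. No difference was tested for it.

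Among the 3 glycogen genes of the list, the branching enzyme and the synthase went in opposite directions. GBE1, which adds branches to glycogen and is a HIF target, gave 3830.5, 3705 and 3738 in the miR-10b decoy arrays, against 3066, 3086 and 3343 in the control decoy arrays and rose (log2 difference 0.25, SE 0.047, adjusted p = 0.00186). Its groups did not overlap, but with the values as deposited the call did not hold (adjusted p = 0.674). GYS1, the muscle glycogen synthase, fell (log2 difference -0.47, SE 0.13, adjusted p = 0.0152), a call that ended without control decoy replicate 1 (adjusted p = 0.0642). PPP1R3C, which brings protein phosphatase to glycogen, had -0.044 (adjusted p = 0.682). CA12, a membrane carbonic anhydrase that handles the acid made by glycolysis, was lower (log2 difference -0.24, SE 0.084, adjusted p = 0.0475). Its 5 other tested probe sets were all more negative and 3 of them were called lower. The CA12 call on the brightest probe set ended when any single control decoy array, replicates 1 to 3, or replicate 3 of the miR-10b decoy was left out (adjusted p = 0.14, 0.0878, 0.0753 and 0.126, in that order).

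The 4 mitochondrial proteins all had miR-10b decoy signals below the control signals (against 24.0% of all genes tested), and 3 passed as lower (against 17.3%). BNIP3, which sits in the outer mitochondrial membrane, calls in the autophagy machinery and is among the most used HIF markers, had the smallest p of all members. Its signal was 3575, 3761 and 3643 in the miR-10b decoy arrays, against 5342, 5162 and 5034 in the control decoy arrays, a fold of 0.71 (log2 difference -0.50, SE 0.042, adjusted p = 7.25e-06). Its only other tested probe set was at -0.75, also called lower. AK4 is an adenylate kinase of the mitochondrial matrix. It gave 844, 903 and 722 in the miR-10b decoy arrays, against 1331, 1276 and 1325 in the control decoy arrays. AK4 fell without overlap (log2 difference -0.68, SE 0.079, adjusted p = 7.63e-05). Of its 3 other tested probe sets 2 were called lower, at -0.63 and -0.82, while the last was at -0.086 and not called. FAM162A, a mitochondrial protein linked to cell death in hypoxia, gave 2856, 2469.8 and 2215 in the miR-10b decoy arrays, against 3511, 3182 and 3230.2 in the control decoy arrays (log2 difference -0.40, SE 0.080, adjusted p = 0.00241). BNIP3L, the relative of BNIP3 that clears mitochondria from maturing red cells, had -0.081 (adjusted p = 0.181) on its brightest probe set and -0.36, called lower, on another.

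Of the 5 regulators of transcription and chromatin, 2 fell (40%, against 17.3% of all genes tested), 1 rose (20%, against 16.5%) and 2 did not pass. ANKRD37, an ankyrin repeat protein and a direct HIF target, gave 401, 369 and 328 in the miR-10b decoy arrays, against 547, 579 and 590.1 in the control decoy arrays and fell without overlap (log2 difference -0.64, SE 0.087, adjusted p = 0.000193). MXI1, which opposes MYC by binding its partner MAX, was lower as well (log2 difference -0.34, SE 0.076, adjusted p = 0.00529). BHLHE41, a repressor of the circadian clock that HIF induces, gave 599.7, 532 and 560.1 in the miR-10b decoy arrays, against 462, 505 and 468 in the control decoy arrays and was higher (log2 difference 0.24, SE 0.076, adjusted p = 0.033). That call ended when 1 array was left out, which could be replicate 1 or 3 of the control decoy or the same of the miR-10b decoy (adjusted p = 0.0961, 0.0809, 0.112 and 0.0585, in that order). The 2 other tested probe sets of BHLHE41 were at 0.30 and -0.48, neither called. With its probe sets averaged BHLHE41 had 0.18 (adjusted p = 0.594). Its relative BHLHE40 had -0.034 (adjusted p = 0.742). KDM3A, a histone demethylase induced by HIF, had -0.14 (adjusted p = 0.151).

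The secreted factors were split. ADM, which encodes adrenomedullin, a vasodilator peptide whose messenger RNA is strongly induced by low oxygen, rose. Its signal was 4965, 4772 and 5421 in the miR-10b decoy arrays, against 3461, 3597 and 2958 in the control decoy arrays, a 1.52-fold difference without overlap (log2 difference 0.60, SE 0.071, adjusted p = 8.43e-05). MIF, a cytokine and HIF target, fell by a small amount (log2 difference -0.16, SE 0.045, adjusted p = 0.0141). STC1, the glycoprotein hormone stanniocalcin, had 0.017 (adjusted p = 0.757) on its brightest probe set, with a dimmer one at -0.41 called lower. ANGPTL4, which inhibits lipoprotein lipase, gave 219, 124 and 128 in the miR-10b decoy arrays, against 132, 139 and 159 in the control decoy arrays, so that miR-10b decoy replicate 1 stood above the other 5 arrays and the interval is wide (log2 difference 0.082, 95% interval -0.33 to 0.50, adjusted p = 0.775).

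Both collagen prolyl 4-hydroxylase subunits of the list fell, where 17.3% of all genes tested were lower. These enzymes stabilise collagen, and low oxygen raises their messenger RNAs. P4HA1 gave 1362, 1492 and 1331 in the miR-10b decoy arrays, against 1928, 2016 and 1846 in the control decoy arrays (log2 difference -0.47, SE 0.061, adjusted p = 0.000152), and P4HA2 gave 2679, 2531 and 2493 in the miR-10b decoy arrays, against 3169, 3212 and 3007 in the control decoy arrays (log2 difference -0.29, SE 0.049, adjusted p = 0.000992). Neither overlapped between groups. The direction of P4HA1 turned with the mean over all probe sets, at a log2 difference of 0.19 (adjusted p = 0.383), where its only other probe set lay under the level for testing, and the P4HA2 call was lost there (adjusted p = 0.43).

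NDRG1, a stress-induced protein used as a marker of hypoxia in tumours, fell. It gave 1946, 1836 and 1405 in the miR-10b decoy arrays, against 2746, 2589.6 and 2438 in the control decoy arrays, and replicate 3 of the miR-10b decoy was the lowest array (log2 difference -0.60, SE 0.10, adjusted p = 0.000898). WSB1, a ubiquitin ligase subunit, had 0.055 (adjusted p = 0.715), although another of its probe sets was called lower at -0.35.

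Over all members, 34 had other tested probe sets, 66 in all, of which 47 had the sign of the brightest and 19, in 14 members, the opposite sign. Of the 22 lower members, 11 had other tested probe sets, 27 in all, of which 26 were negative, 18 were called lower and 19 were more negative than the brightest. None was called higher. For PGK1 the brightest probe set was at -0.18 and the 5 others ran between -0.45 and -1.34, all called lower. ENO1 was at -0.19 on the brightest and -0.63 and -0.54 on 2 others, both called lower, and ALDOA was at -0.16 on the brightest and at -0.10 and -0.49 on 2 others, the last of which was called lower. These calls come from a fit over all tested probe sets.

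**Figure D3:**
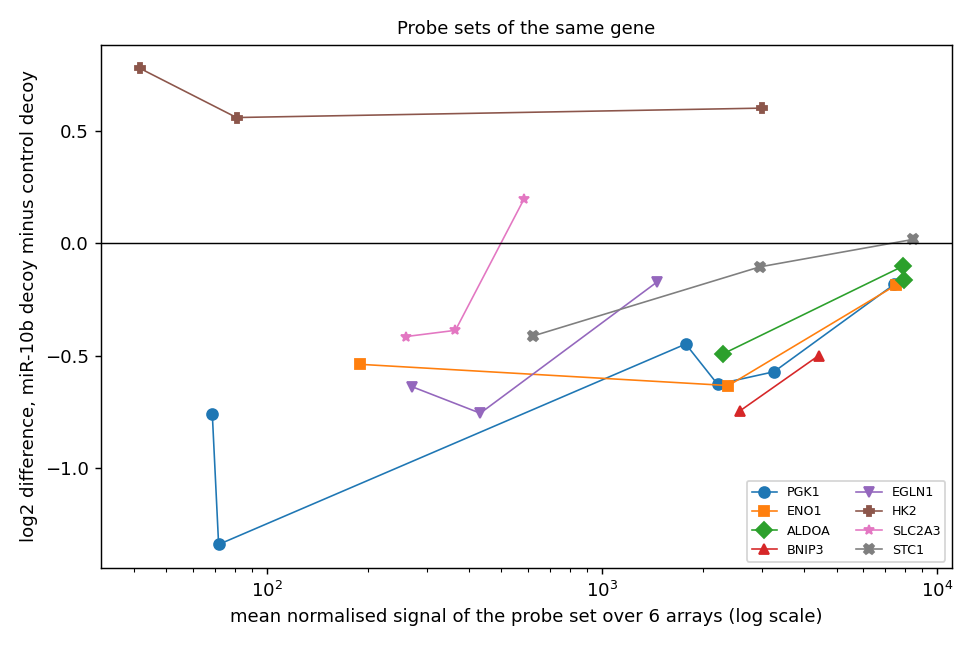
Log2 difference, miR-10b decoy minus control decoy, against mean normalised signal on a log axis, for every tested probe set of 8 members, with a line joining the probe sets of one gene. The dimmer probe sets of PGK1 and ENO1 lie lower than the brightest, EGLN1 and STC1 show the same order, SLC2A3 crosses 0 and all 3 probe sets of HK2 lie above 0.

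Genes of the same pathways that are not members were taken as 6 lists with 88 genes, of which 68 were tested, 12 were higher (17.6%, against 16.5% of all genes tested) and 21 lower (30.9%, against 17.3%). These lists too were chosen with earlier results of these data known. Among 23 tested HIF target genes outside the members, 11 were lower (47.8%) and 3 higher (13.0%), with a median of -0.21. CXCR4, a chemokine receptor, is among the 11 and reached the level for testing through the control arrays alone, since all 3 miR-10b decoy arrays lay under it. Without it 10 of 22 were lower and the median was -0.15. TMEM45A, a membrane protein induced by hypoxia, gave 559, 660.1 and 486 in the miR-10b decoy arrays, against 982, 1089.8 and 1049 in the control decoy arrays and fell without overlap (log2 difference -0.88, SE 0.099, adjusted p = 5.89e-05). LOX, the lysyl oxidase that crosslinks collagen, and PLOD2, a collagen lysyl hydroxylase, were lower too (-0.41 and -0.32, adjusted p = 0.000632 and 0.000694). RORA, a nuclear receptor, was higher (log2 difference 0.49, SE 0.067, adjusted p = 0.000218), as were 2 of its other probe sets, while 2 further ones were at -0.079 and -0.064 and not called. VEGFA, the angiogenic growth factor and the best known HIF target, gave 5725, 5637 and 5791 in the miR-10b decoy arrays, against 6042, 5775 and 5239.9 in the control decoy arrays, with overlap and a narrow interval around 0 (log2 difference 0.011, 95% interval -0.10 to 0.12, adjusted p = 0.898).

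**Figure D4:**
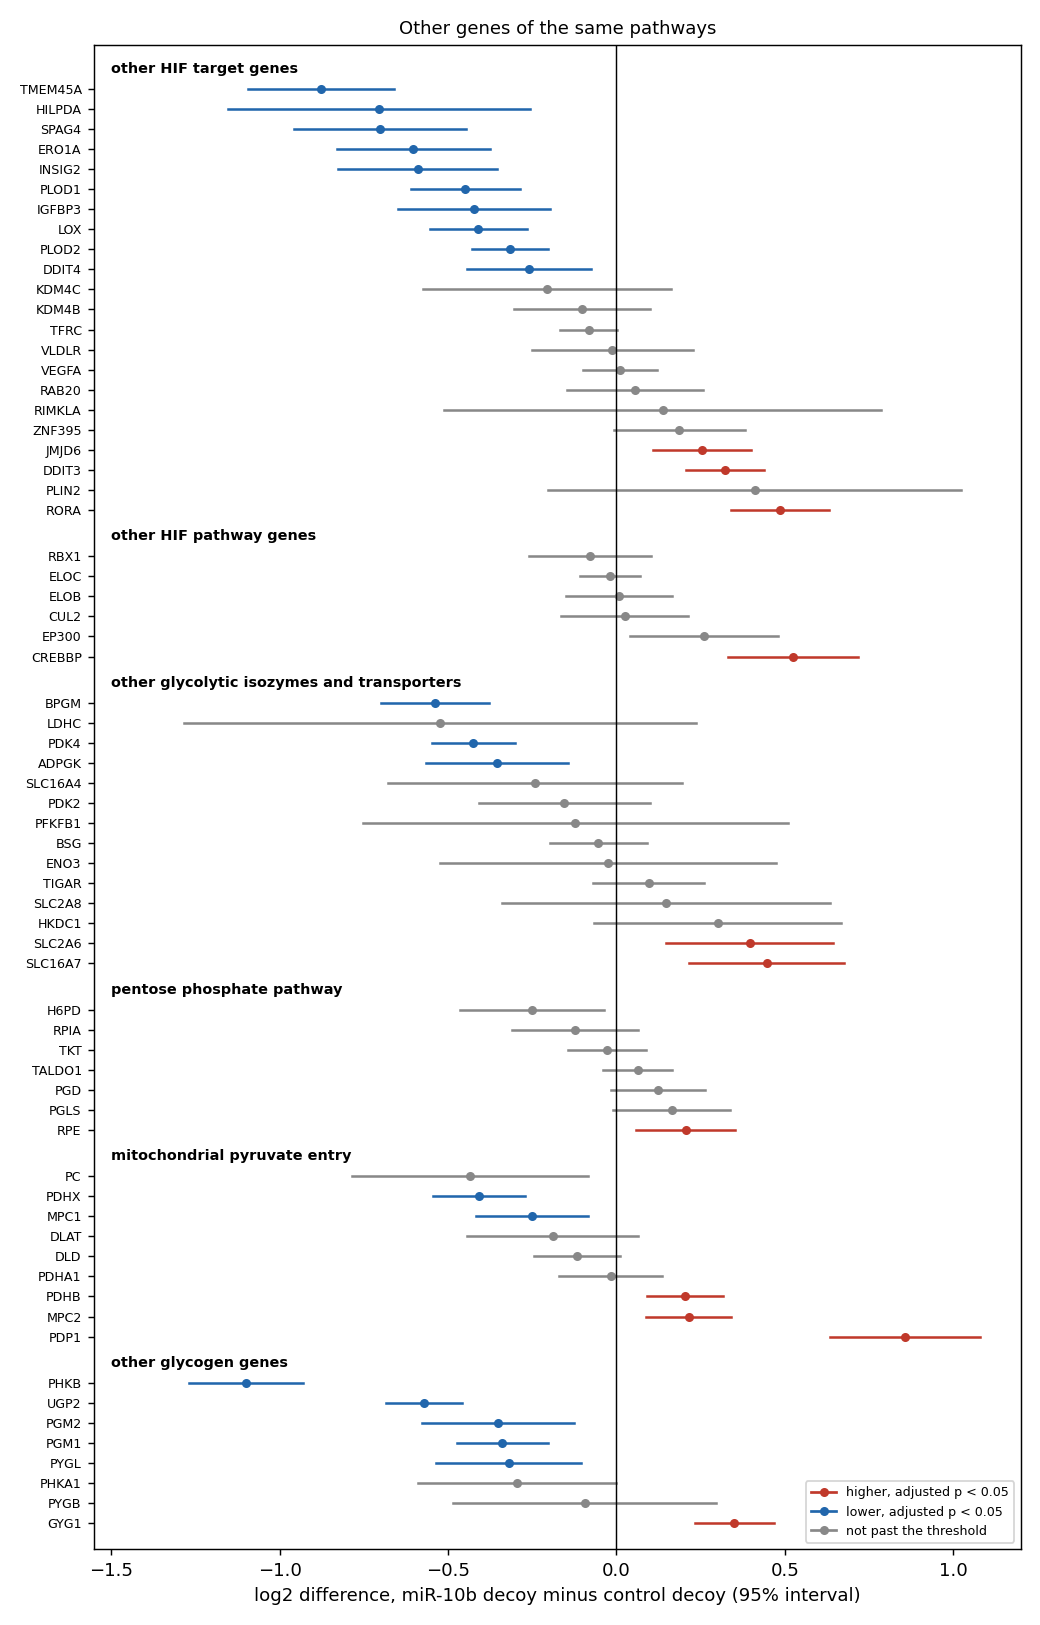
Log2 difference, miR-10b decoy minus control decoy, with 95% intervals, for other genes of the same pathways, in 6 lists from top to bottom. Red marks genes that were higher, blue those that were lower and grey those that did not pass the test. ARNT2 and CXCR4, each under the level for testing on arrays of a group, are not drawn. PHKB lies farthest to the left and PDP1 farthest to the right.

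Of 7 tested genes of the HIF machinery outside the members, 2 were higher (28.6%, against 16.5% of all genes tested). None was lower (against 17.3%). Apart from ARNT2, which had 2 control arrays under the level for testing, CREBBP was the only higher gene of this list. CREBBP, the coactivator that HIF and CITED2 share, was higher (log2 difference 0.52, SE 0.088, adjusted p = 0.000828), a call not kept with the mean over all probe sets (adjusted p = 0.0742), and EP300 had 0.26 (adjusted p = 0.0672), passing as higher without control decoy replicate 1 (adjusted p = 0.0114). ARNT2, a relative of ARNT expressed in brain, gave 71.1, 65.7 and 67.3 in the miR-10b decoy arrays, against 39.5, 3.78 and 8.72 in the control decoy arrays, and was higher (adjusted p = 0.00637) with 2 control arrays under the level for testing, so its size is not given. RBX1, a ubiquitin ligase subunit, had -0.078 (adjusted p = 0.507).

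Genes of pyruvate dehydrogenase, its regulators and pyruvate entry into mitochondria changed in both directions. PDK4, like PDK1 a kinase that inactivates pyruvate dehydrogenase, gave 2418, 2763 and 2457 in the miR-10b decoy arrays, against 3409, 3339 and 3490.1 in the control decoy arrays and fell (log2 difference -0.42, SE 0.056, adjusted p = 0.000169). PDP1, the phosphatase that reactivates the same enzyme, gave 1568, 1961 and 2216 in the miR-10b decoy arrays, against 994, 1066 and 1079 in the control decoy arrays and rose by 0.86 on the log2 scale (SE 0.10, adjusted p = 8.59e-05), with its other probe set also called higher at 0.75. PDHX, a structural component of the complex, was lower (-0.41, adjusted p = 0.000458), while PDHB, an enzyme subunit (0.20, adjusted p = 0.0102), and MPC2, a subunit of the pyruvate carrier (0.21, adjusted p = 0.0136), were higher. MPC1, the other subunit of the carrier, was lower (-0.25, adjusted p = 0.0249). The MPC2 call ended without control decoy replicate 1 (adjusted p = 0.0513). As deposited neither PDHB, at 0.074 (adjusted p = 0.715), nor MPC2, at 0.11 (adjusted p = 0.565), passed. With probe sets averaged neither passed (PDHB 0.079, adjusted p = 0.27, and MPC2 0.13, adjusted p = 0.19), and the other PDHB probe set was at -0.047. PDP1, PDHB and MPC2, 3 of the 9 tested genes of the pyruvate entry list, were higher (33.3%, against 16.5% of all genes tested). PDHX and MPC1, 2 of the 9, were lower (22.2%, against 17.3%), while PDK4 belongs to the list of isozymes.

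Of 8 tested glycogen genes outside the members 5 were lower (62.5%) and 1 higher. PHKB, a subunit of phosphorylase kinase, which starts glycogen breakdown, gave 309, 329 and 355 in the miR-10b decoy arrays, against 733, 687 and 717 in the control decoy arrays and had the largest drop (log2 difference -1.10, SE 0.077, adjusted p = 2.25e-06), with 2 other probe sets called lower at -0.53 and -0.46. UGP2, which makes the glucose donor for glycogen synthesis, and PGM1, which links glucose 1-phosphate to glycolysis, were lower at -0.57 and -0.34 (adjusted p = 1.21e-05 and 0.00147). GYG1, the primer protein of glycogen, was higher (0.35, adjusted p = 0.000458), but not with the values as deposited (adjusted p = 0.19).

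Among 14 tested glycolytic isozymes and transporters outside the members, 3 were lower (21.4%, against 17.3% of all genes tested). In the same list 2 were higher (14.3%, against 16.5%). Besides PDK4, BPGM, which makes 2,3-bisphosphoglycerate, was lower (log2 difference -0.54, SE 0.073, adjusted p = 0.000208), and so was ADPGK, an ADP-dependent glucokinase (log2 difference -0.35, SE 0.096, adjusted p = 0.0144), whose call ended without miR-10b decoy replicate 3 (adjusted p = 0.0538). SLC16A7, a monocarboxylate transporter with high affinity for pyruvate, was higher (log2 difference 0.45, SE 0.10, adjusted p = 0.00653). The pentose phosphate pathway branches from glucose 6-phosphate. Of its 7 tested genes 1 was higher (14.3%, against 16.5% of all genes tested) and none lower (against 17.3%). That gene was RPE, the ribulose phosphate epimerase (log2 difference 0.21, SE 0.067, adjusted p = 0.0334), and its call ended when 1 array was left out, which could be replicate 1 or 3 of the control decoy or replicate 2 or 3 of the miR-10b decoy (adjusted p = 0.114, 0.0735, 0.0887 and 0.0929, in that order). The next genes of this list by p were H6PD at -0.25 (adjusted p = 0.0689), PGLS at 0.16 (adjusted p = 0.137) and PGD at 0.12 (adjusted p = 0.164), none of them called. H6PD passed as lower when miR-10b decoy replicate 2 was left out (adjusted p = 0.0472), and PGLS passed as higher when replicate 3 of that group was (adjusted p = 0.0174).

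Across the alternatives tried, 10 of the 28 member calls held in every one. These were HK2 and ADM, which rose, and PFKFB4, ALDOC, AK4, ANKRD37, BNIP3, PDK1, ENO2 and PGAM1, which fell. The counts of all genes moved with the scaling of the arrays, since 48.9% of all calls were higher under the main setting, 66.2% after centring on array medians and 30.04% with the values as deposited. After centring, 13 of 52 members were lower and 9 higher, against 11.3% of all genes lower and 22.2% higher under the same setting.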

How the data were processed

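The deposited values were linear signal intensities, 1 for each of 54675 probe sets on each array, and MAS5 is the tool named per the submitters' processing notes (its version: not given in the sources used here). Of the probe sets, 41091 carried a single platform gene symbol and were used. Left out were 62 control probe sets, 1801 with several symbols and 11777 with none, classes that overlap in part. The values were taken as log2(signal + 3), with the offset set from the median of all deposited intensities, and quantile normalised over all probe sets. Fold changes are on this scale, which understates the change of dim genes. The brightest probe set stood for each gene, and genes with a mean signal under the 30th percentile (15.4) were left out, which left 13842 of 19775 genes. The miR-10b decoy (3 arrays) and control decoy (3 arrays) groups were compared with limma 3.58.1 in R 4.3.3 (lmFit, then eBayes with the trend option; two-sided, Benjamini-Hochberg over all genes tested, threshold 0.05). Tested on simulated data of 13842 genes with 200 changed, this fit recovered 43.3% of 1.5-fold, 73.1% of 2-fold and 83.3% of 3-fold changes, with 4.32% of calls false. In the data themselves 4680 genes were called, far more than 200. The adjusted p depends on that share, so these rates need not hold for this comparison. Precision is limited by there being 3 arrays a group.

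The members and lists were chosen with earlier results of these data known. By rule, array values were given for up to 12 members in each direction by smallest p and for 15 genes of wide interest, 14 of them members, and up to 4 genes by smallest p were named in each pathway list. A further few array values, of ANGPTL4 and of pathway genes, were added after their values were seen. The array values of the marker OLIG2 and the naming of MPC1 and CXCR4 also fall outside the rule. Calls of MPC1 and CXCR4 were not followed over the alternatives. Probe sets were also tested singly. Alternatives covered scaling, offset, filter, probe set choice, variance model, replicate numbers as a block and each array left out. Promoter motifs were searched in RefSeq sequences of GRCh38.p14.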

Additional observations from a re-analysis of the deposited data

How the results depend on the processing

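Of the 28 calls among the members, 10 held under all 17 alternatives, and the 8 lower and 2 higher genes concerned are named in the report. The count of higher members was 6 under the main setting, 3 with the values as deposited and 3 with the mean of all probe sets, and 5 to 7 with 1 array left out. The count of lower members was 22 under the main setting, 13 with arrays centred on their median, 14 without an intensity trend and 14 with per-gene variances, and 19 to 24 with 1 array left out. Over all genes, 2290 were higher under the main setting, 1085 as deposited, 1370 with the mean of all probe sets and 1444 with per-gene variances (1849 to 2168 with 1 array left out), and 2390 were lower, against 1566 after centring, 1442 with the mean of all probe sets and 1373 with per-gene variances (1798 to 2154 with 1 array left out). The median of all genes tested was -0.14 on the log2 scale as deposited. Glycolytic enzymes that were lower numbered 9 under the main setting, 3 after centring, 4 without an intensity trend, 6 as deposited and 6 with per-gene variances. With all probe sets of a gene averaged, P4HA1 turned to 0.19 (adjusted p = 0.383) and STC1 to -0.17 (adjusted p = 0.035). Calls of single genes, members or named pathway genes, also changed. After centring, the lost calls were ADPGK, ALDOA, CA12, ENO1, GPI, LDHA, MIF, MXI1, PFKL and PGK1 (adjusted p = 0.0545 to 0.261). With probe sets averaged, the lost calls were ADPGK, BHLHE41, CITED2, CREBBP, ENO1, HIF1AN, MPC2, P4HA2, PDHB, PFKL, RORA and RPE (adjusted p = 0.05002 to 0.889). As deposited, the lost calls were ALDOA, BHLHE41, GBE1, GYG1, HIF1AN, LDHA, MIF, MPC2, PDHB, PGK1, RPE and SLC16A7 (adjusted p = 0.0509 to 0.715). Without an intensity trend, the lost calls were ADPGK, ALDOA, ARNT2, BHLHE41, CA12, ENO1, GPI, GYS1, LDHA, MIF, MPC2, PDHB, PGK1 and RPE (adjusted p = 0.0561 to 0.174). With per-gene variances, the lost calls were ADPGK, ARNT2, BHLHE41, CA12, FAM162A, GPI, GYS1, LDHA, MIF, NDRG1, PFKL, RPE and SLC16A7 (adjusted p = 0.0524 to 0.232). Without a filter, the lost calls were CA12, LDHA and MIF (adjusted p = 0.0508 to 0.09). With the replicate block, the lost call was BHLHE41 (adjusted p = 0.0524). After centring, the gained calls were ARNT, EP300, PGD, PGLS, SLC2A3 and VHL (adjusted p = 0.0095 to 0.032). With probe sets averaged, the gained calls were BNIP3L, EGLN1 and SLC2A1 (adjusted p = 0.00527 to 0.0259). With the replicate block, the gained calls were EP300, PFKFB3 and VHL (adjusted p = 0.0288 to 0.0451). With trimmed-mean scaling, the gained calls were EP300, PFKP and SLC2A3 (adjusted p = 0.033 to 0.0463). With the filter at the 50th percentile, the gained call was VHL (adjusted p = 0.0448). The cause was not tested. Arrays with the same replicate number did not deviate together (r of 0.023, -0.023 and -0.015). No pairing by number was seen, but so few arrays cannot exclude one, and the labels do not say. With the replicate block 6 members were higher and 23 lower, and 2216 genes were higher and 2335 lower. Offsets of 1 and 32 gave 6 higher and 22 lower members each. Without a filter 19 members were lower, and dim members such as EGLN3 remained limited by signal near background.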

Other observations

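The size of the differences shrank with brightness over all genes, which bears on the many glycolytic enzymes near the top of the scale. The median size of the log2 difference was 0.23 among 6866 genes with a mean signal of 100 to 1000, 0.18 among 1887 genes with 1000 to 5000 and 0.085 among 238 genes above 5000. A size over 0.5 was found in 17.9%, 9.86% and 3.36% of these genes in the same order. Where a gene had passed the test and had other tested probe sets with a signal of 100 or more, those others showed a larger difference in the same direction in 30.7% of 1559 probe sets for genes of 100 to 1000, in 40.3% of 957 for genes of 1000 to 5000 and in 61.5% of 96 for genes above 5000. The brightest probe set was chosen for its signal, so its companions are dimmer by construction, and differences of PGK1, ENO1, ALDOA, LDHA and GAPDH were read from the brightest range. The part of brightness in these differences was not tested.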
